A study of Homo sapiens with 10 samples.

Results

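The 10 genes described here are state factors of the neural crest and of the epithelial-mesenchymal transition, measured in subcutaneous tumours of the human melanoma line A375. They are the neurotrophin receptor gene NGFR, the SOX family genes SOX2, SOX4 and SOX9, the transition factor genes SNAI2, ZEB1, ZEB2 and TWIST1, and the cadherin genes CDH1 and CDH2. They were chosen by gene symbol, and all 10 were found among the 17492 genes measured, with 1 probe set each. The tumours grew in BALB/c nude mice, which lack a normal T cell compartment, and all carried doxycycline-inducible Omomyc, a MYC-derived dominant-negative protein. Once tumours reached 100 mm3, 5 received the vehicle and 5 received doxycycline in the drinking water, and all were excised after 7 days. Tumours of the second line in the protocols, SkMel147, are not analysed here. Whether the inducible line is a single clone is not given in the sources used here. No doxycycline-treated tumours without Omomyc were compared, so Omomyc and doxycycline itself cannot be told apart. The labels call the samples biological replicas without naming the animals, so the p-values measure the spread between these samples.

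Melanocytes descend from the neural crest, an embryonic population that leaves the neural tube by loosening its cell contacts and migrating. SNAI2, TWIST1, ZEB1 and ZEB2 drive this kind of transition and repress the epithelial cadherin gene CDH1 through E-box sequences. In melanoma, SNAI2 and ZEB2 are known as factors of the differentiated melanocytic state, whereas ZEB1, TWIST1, SOX9 and NGFR are associated with less differentiated, invasive or neural crest-like states.

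Of the 10 genes, 2 rose (NGFR and ZEB2), 2 fell (SNAI2 and SOX2) and 6 did not pass the test under doxycycline (limma, Benjamini-Hochberg adjustment over all genes, adjusted p below 0.05). In the same test 11% of all genes were called, 5.03% higher and 5.95% lower. The groups did not overlap for the same 4 genes, 2 above and 2 below, where 5.38% of all genes lay entirely above, 6.43% entirely below and 11.8% either way. SNAI2 had the largest change, a 4.22-fold lower level (95% CI 2.74 to 6.51, n = 5 per group). The call of ZEB2 was the least stable of the 4. In bulk tumours, fewer cells that express a gene and less RNA per cell cannot be told apart.

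**Figure D1:**
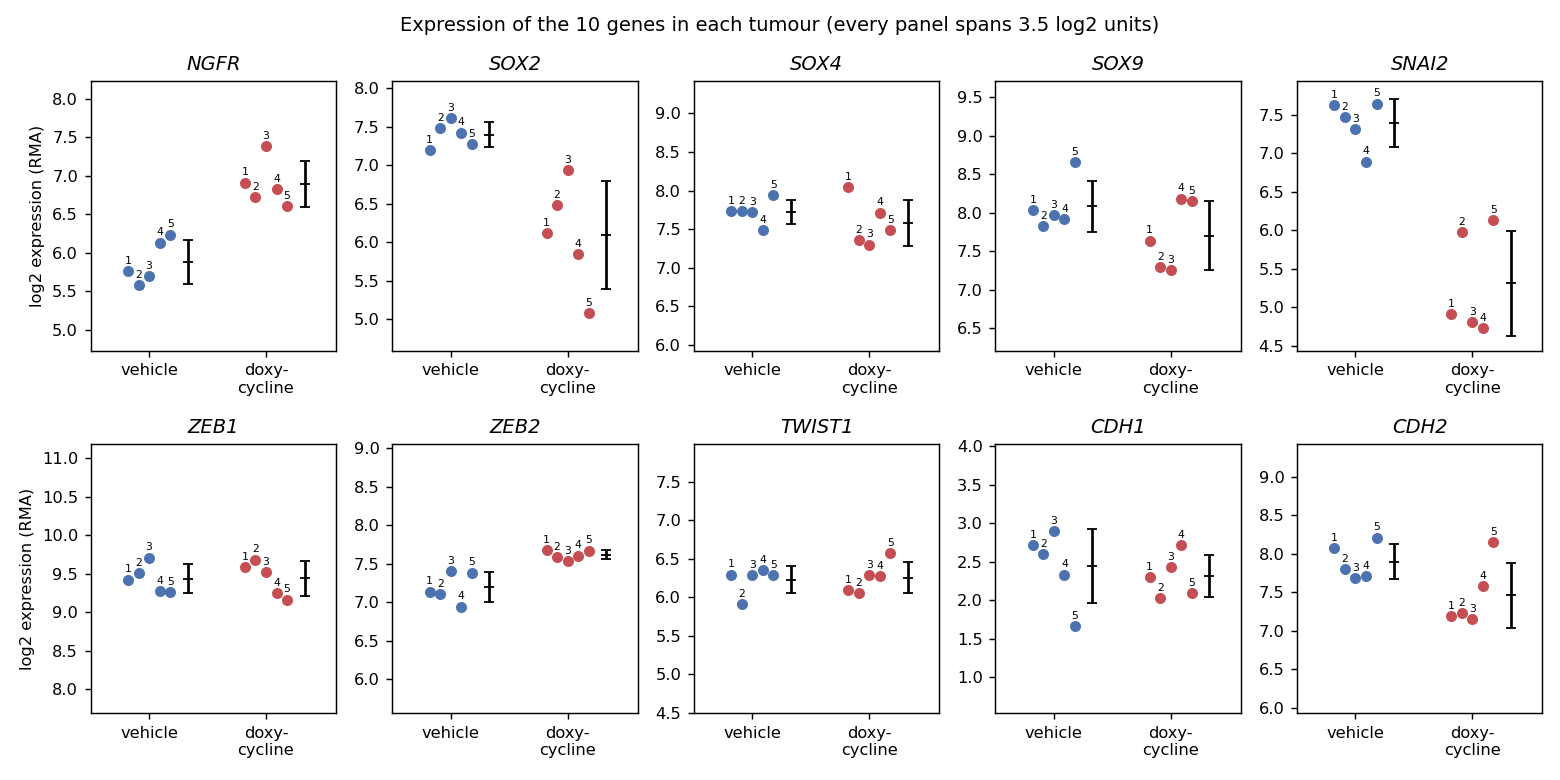
Each panel plots the log2 expression of a gene (vertical axis, RMA values) in the 5 vehicle tumours (blue) and the 5 doxycycline tumours (red), numbered by replicate, with the group mean and SD in black. The groups are separate for NGFR, SOX2, SNAI2 and ZEB2 and overlap for the other 6 genes, and every panel spans the same height.

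The promoters of SOX2 and ZEB2 are shown because these genes moved in opposite directions. Each sequence is the 250 bases before the RefSeq start of the gene in GRCh38.p14, written 5′ to 3′ along the gene. Capitals mark CCAAT boxes (CCAAT or ATTGG) and GC boxes (GGGCGG or CCGCCC).
SOX2: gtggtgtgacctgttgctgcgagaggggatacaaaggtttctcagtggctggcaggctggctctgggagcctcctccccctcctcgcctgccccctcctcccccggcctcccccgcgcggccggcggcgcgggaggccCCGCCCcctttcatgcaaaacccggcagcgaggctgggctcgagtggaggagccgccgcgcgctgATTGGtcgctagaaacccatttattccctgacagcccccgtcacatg
ZEB2: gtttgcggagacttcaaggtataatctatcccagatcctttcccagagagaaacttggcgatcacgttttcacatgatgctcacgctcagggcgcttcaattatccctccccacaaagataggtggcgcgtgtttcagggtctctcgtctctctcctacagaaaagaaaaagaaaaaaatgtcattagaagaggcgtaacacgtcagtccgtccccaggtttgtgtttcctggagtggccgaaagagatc
The SOX2 window lies at chr3:181711675-181711924 on the + strand and the ZEB2 window at chr2:144520120-144520369 on the - strand. SOX2 held 1 CCAAT box, starting 47 bases before the start, and 1 GC box, starting 112 bases before it, and 68.8% of its bases were G or C. ZEB2 held neither motif, and 48% of its bases were G or C. A CCAAT box was found in 32% and a GC box in 42.6% of the 35116 promoter windows of this length. The MYC and MAX E-box CACGTG, found in 6.34% of all windows, was in neither sequence. The E-box CACCTG or CAGGTG, bound by SNAI and ZEB proteins and found in 17.5% of all windows, was also in neither. Among the 7 start sites listed for ZEB1, the paralogue of ZEB2, 2 had this second E-box and 5 had a GC box. CCAAT boxes were also in the 1 window of SOX4 and in both windows of CDH2, and 1 CDH2 window had a GC box. ZEB1, SOX4 and CDH2 were not called. The letters say nothing of whether a factor was bound in these tumours.

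SNAI2 encodes SLUG, a zinc finger repressor needed for neural crest migration and for melanocyte development. Its log2 values were 7.63, 7.46, 7.32, 6.89 and 7.64 in vehicle tumours 1 to 5 and 4.91, 5.97, 4.81, 4.73 and 6.13 in doxycycline tumours 1 to 5. All treated tumours were thus lower than all controls, with a gap of 0.76 between the groups. Among the treated tumours, numbers 2 and 5 kept more SNAI2 than the other three. The mean fell by 2.08 on the log2 scale (95% CI -2.70 to -1.45, adjusted p = 0.000815): its level was 7.39 ± 0.31 under vehicle and 5.31 ± 0.68 under doxycycline (SD, n = 5 each). Of all genes, 0.309% changed by a larger amount. The fall kept its call under all 22 alternatives, and was from -1.93 to -2.28 when single arrays were left out.

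Fibroblasts also express SNAI2. The mean log2 level over the 9 measured markers was 5.63 to 6.26 in vehicle and 5.34 to 5.79 in doxycycline tumours, and the groups overlapped. With limma 0 of these 9 markers were called, against 5 at an unadjusted p below 0.05 and 0 with the unmoderated test of unequal variances. These 5 went both ways: ACTA2 and COL1A2 differed by 0.52 and 0.40, and PDGFRB, LUM and COL1A1 by -0.57, -0.96 and -0.58. More than 11% of all genes lay below that unadjusted cut, since every called gene does. With the replicate block, or with the stroma score described next, 2 markers were called lower, and trended and robust moderation gave 1 higher and 3 lower. The stroma score contains these 9 markers, so their calls in that fit are not independent of it. Leaving out vehicle array 2 gave 1 higher marker, leaving out doxycycline array 3 gave 1 higher and 1 lower, and leaving out doxycycline array 5 gave 3 lower. ACTA2, COL1A1, COL1A2 and PDGFRB lay above the median gene on all 10 arrays. With a stroma score of fibroblast, endothelial and macrophage markers as a covariate, SNAI2 differed by -2.19 (adjusted p = 0.000886), but only 8.0% of the variance of that score lay between the groups. The part of fibroblasts in the fall of SNAI2 was not tested.

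The profile over the 10 arrays most like that of SNAI2, measured as the root mean square difference of deviations from the vehicle mean, was that of TXNIP, with a difference of 0.28 on the log2 scale. TXNIP, an inhibitor of thioredoxin and of glucose uptake, fell by 2.22 (adjusted p = 0.000316). Next came the chromatin remodelling subunit gene SMARCD3 (0.37) and the amino acid transporter gene SLC7A5 (0.42), which fell by 1.69 each. These genes were chosen for their likeness.

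ZEB1 and ZEB2 are paralogous zinc finger and homeodomain repressors. ZEB2 was at 7.14, 7.11, 7.41, 6.94 and 7.39 in the vehicle tumours and at 7.67, 7.59, 7.54, 7.61 and 7.67 in the doxycycline tumours, in the order of their numbers. The treated tumours lay above all controls, although the gap was 0.13, and they were tightly grouped (SD 0.06 against 0.20 in vehicle). ZEB2 rose by 0.42 (95% CI 0.16 to 0.68, adjusted p = 0.0441), a 1.34-fold change. That call was lost when vehicle array 1, 2 or 4 or any single doxycycline array was left out, where the adjusted p reached 0.107. It was also lost with the replicate number as a block (adjusted p = 0.0869), after adjustment for the stroma score (adjusted p = 0.0747) and with the unmoderated test of unequal variances (adjusted p = 0.0724).

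ZEB1 was at 9.42, 9.50, 9.71, 9.27 and 9.26 in vehicle and 9.58, 9.68, 9.52, 9.25 and 9.16 in doxycycline tumours. The ranges covered each other, and the difference of 0.01 had a 95% CI of -0.30 to 0.31 (adjusted p = 0.99). That interval holds changes of up to 1.24-fold in size. The difference between the responses of ZEB1 and ZEB2 was not tested. The profiles most like that of ZEB2 were those of NECAP1 (difference 0.09), GPNMB (0.09) and GET3 (0.11), and of these NECAP1 passed the test (adjusted p = 0.0427). Its call was lost under 13 of 22 alternatives, among them the replicate block (adjusted p = 0.101) and single arrays left out (adjusted p up to 0.106).

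TWIST1 encodes a basic helix-loop-helix factor that acts through E-boxes. It was at 6.30, 5.92, 6.29, 6.36 and 6.29 in vehicle and at 6.09, 6.06, 6.28, 6.28 and 6.57 in doxycycline tumours. Vehicle tumour 2 was the lowest and doxycycline tumour 5 the highest of the 10, and the groups overlapped. The difference was 0.03 (95% CI -0.27 to 0.32, adjusted p = 0.933).

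**Figure D2:**
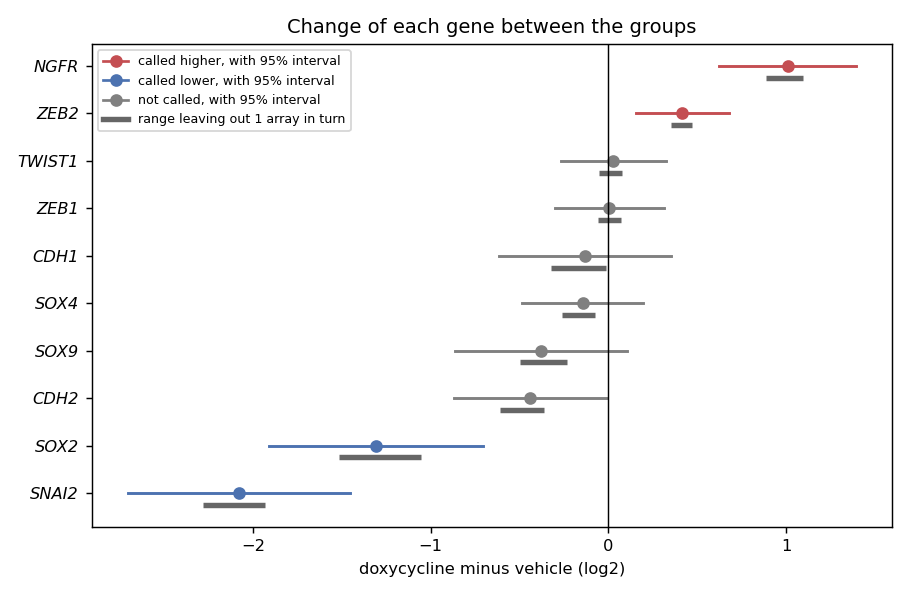
Points give the difference of doxycycline minus vehicle (horizontal axis, log2) for each gene, coloured lines its 95% interval, and black bars the range when single arrays were left out in turn. SNAI2 and SOX2 lie to the left of 0 and NGFR and ZEB2 to the right, while the interval of CDH2, which was not called, ends just below 0.

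NGFR encodes p75, a low-affinity receptor for neurotrophins that marks neural crest stem cells and neural crest-like melanoma cells. Its log2 values were 5.76, 5.58, 5.70, 6.13 and 6.23 in the vehicle tumours and 6.91, 6.72, 7.38, 6.82 and 6.61 in the doxycycline tumours. Every treated tumour lay above every control, by 0.37 at the closest, and doxycycline tumour 3 was the highest. The mean rose by 1.01 (95% CI 0.62 to 1.39, adjusted p = 0.00349), or 2.01-fold. Its level was 5.88 ± 0.29 under vehicle and 6.89 ± 0.30 under doxycycline (SD, n = 5 each). The groups were about equally spread, and the call held under all 22 alternatives.

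Schwann cells of the host nerve also carry NGFR. Their 8 measured markers had a mean of 5.24 to 5.71 in vehicle tumours and of 4.80 to 6.03 in doxycycline tumours. Of the treated tumours, 4 were above the vehicle range and doxycycline tumour 5 was below it. With limma 0 of the 8 were called, against 1 at an unadjusted p below 0.05 and 0 with the unmoderated test. More than 11% of all genes passed the unadjusted cut. Without doxycycline array 5, 2 were called higher. S100B and CDH19, both also expressed by melanoma cells, are among these 8, and the part of Schwann cells in the rise of NGFR was not tested.

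Of 21 measured ligands, partners and effectors of NGFR 1 rose and 1 fell, or 9.52% called against 11% of all genes, with a median change of -0.03 against 0.02 for all genes. The sortilin-related receptor gene SORCS2 fell by 0.92 (adjusted p = 0.0115), and 2 genes of the list were lower when vehicle array 5 was left out. TNFRSF21, which encodes the death receptor DR6, rose by 0.91 (adjusted p = 0.042), and its call was lost without any single array other than doxycycline array 5 (adjusted p up to 0.0984). The profiles most like that of NGFR were those of SLC2A13 (difference 0.19), TMC7 (0.19) and TFAP2C (0.20), which rose by 1.06, 1.10 and 1.01.

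SOX2 encodes a pluripotency factor that also maintains neural progenitors. Its log2 values were 7.20, 7.48, 7.61, 7.42 and 7.28 in vehicle and 6.12, 6.49, 6.93, 5.85 and 5.08 in doxycycline tumours 1 to 5. The groups did not overlap, and the treated tumours differed widely, from tumour 3 at 0.47 below the vehicle mean to tumour 5 at 2.32 below it. The SD was 0.16 in vehicle and 0.70 in doxycycline tumours. SOX2 fell by 1.31 (95% CI -1.91 to -0.70, adjusted p = 0.00985), or 2.47-fold. With the unmoderated test of unequal variances its adjusted p was 0.097. Without doxycycline arrays 4 and 5, which had the lowest SOX2 and correlated least with their own group, it was lower by less (-0.89, adjusted p = 0.015).

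The mean log2 level over 15 macrophage and monocyte markers was 4.00 to 4.22 in vehicle and 4.21 to 4.61 in doxycycline tumours, with 2 members called higher, LYZ (1.28, adjusted p = 0.000384) and CD14 (0.79, adjusted p = 0.0244). That is 13.3% of the list called, against 11% of all genes. Of the 15 markers 11 had a positive difference, with a list median of 0.30. CSF1R, C1QA, C1QB and C1QC differed by -0.15, -0.14, -0.11 and -0.11 and were not called. CD14 was not called when vehicle array 1, 3 or 4 or doxycycline array 4 was left out, nor with the replicate block (adjusted p = 0.0564). Doxycycline tumours 4 and 5, with the least SOX2, had the highest marker means, 0.51 and 0.47 above the vehicle mean. The called markers did not follow that order: among treated tumours LYZ was lowest in tumour 5 (6.57), and CD14 was highest in tumour 3 (5.06), which had the most SOX2. PTPRC, ADGRE1, AIF1 and MRC1 lay below the lower quartile of genes on all 10 arrays, whereas CD68 and LYZ lay above the median gene on all 10. With the marker mean as a covariate SOX2 was lower by 0.59 and no longer called (adjusted p = 0.385). In that fit 506 genes were called in place of 1921, and 57.9% of the variance of the covariate lay between the groups. The part of macrophages in the fall of SOX2 was not tested.

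MCTP2, PUS7 and CEP70 had the profiles most like that of SOX2, with differences of 0.18, 0.22 and 0.23. MCTP2, a calcium-binding membrane protein gene, fell by 1.35 and PUS7, a pseudouridine synthase gene, fell by 1.28. CEP70, which encodes a centrosomal protein, fell by 1.19. PUS7 was not called when vehicle array 4 or doxycycline array 4 was left out (adjusted p = 0.0563 and 0.054).

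SOX9, a factor of neural crest induction and cartilage, was at 8.04, 7.83, 7.97, 7.92 and 8.66 in vehicle and 7.64, 7.30, 7.26, 8.18 and 8.15 in doxycycline tumours. Doxycycline tumours 1 to 3 lay below all controls, whereas tumours 4 and 5 lay within the vehicle range. The difference of -0.38 (95% CI -0.86 to 0.10) did not pass (adjusted p = 0.33).

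SOX4, a factor of progenitor cells that responds to TGF-beta, was at 7.73, 7.73, 7.72, 7.49 and 7.94 in vehicle and 8.04, 7.36, 7.30, 7.71 and 7.48 in doxycycline tumours. Its groups overlapped, with tumour 1 of the doxycycline group the highest of all 10. The difference was -0.14 (95% CI -0.48 to 0.20, adjusted p = 0.639). Among 15 other SOX genes 1 was called, 6.67% of the list against 11% of all genes. This was SOX12, which is closely related to SOX4 and fell by 0.72 (adjusted p = 0.00965). SOX10, the SOX factor that specifies melanocytes, differed by 0.08 (95% CI -0.43 to 0.59).

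**Figure D3:**
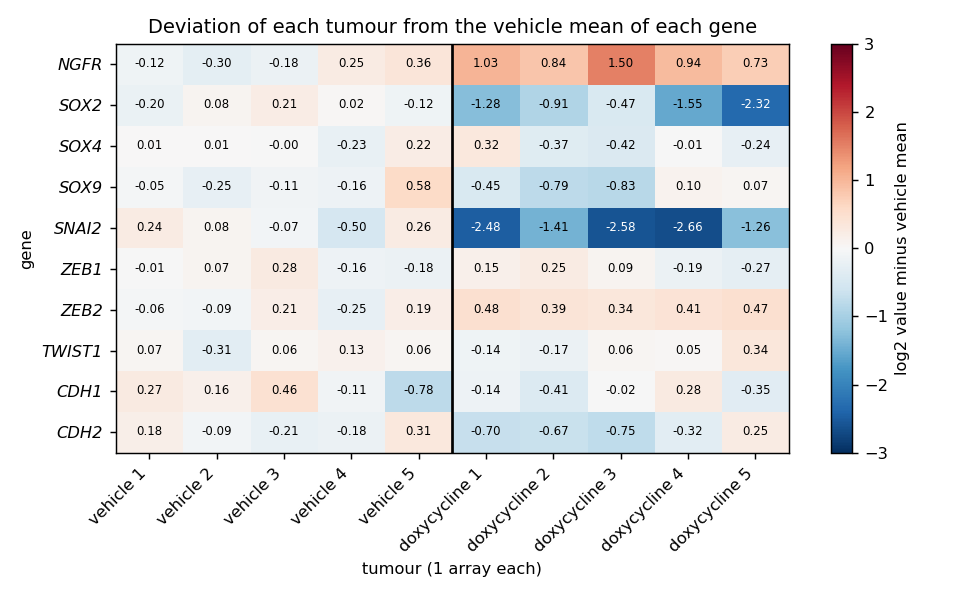
Colours and numbers give the log2 value of each tumour (columns) minus the vehicle mean of each gene (rows). In all 5 doxycycline tumours NGFR and ZEB2 were above and SOX2 and SNAI2 below the vehicle mean, while SOX9 and CDH2 were lowest in doxycycline tumours 1 to 3.

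Cadherins join neighbouring cells, and a change from E-cadherin, encoded by CDH1, to N-cadherin, encoded by CDH2, is a classical mark of the transition. CDH1 was at 2.72, 2.60, 2.90, 2.33 and 1.66 in vehicle and 2.30, 2.03, 2.43, 2.72 and 2.10 in doxycycline tumours. All 10 values lay below the lower quartile of genes on their array, which was 3.43 to 3.59, so the probe set was dim in both groups. The difference was -0.13 (95% CI -0.61 to 0.36, adjusted p = 0.786).

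CDH2 was at 8.07, 7.80, 7.68, 7.71 and 8.21 in vehicle and 7.19, 7.22, 7.15, 7.57 and 8.14 in doxycycline tumours. Of the treated tumours 4 were below all controls, and tumour 5 was near the top of the vehicle range. The difference of -0.44 (95% CI -0.87 to -0.01) did not pass (adjusted p = 0.193). Without doxycycline array 5 it was -0.61 and was called (adjusted p = 0.025), and without arrays 4 and 5 it was -0.71 (adjusted p = 0.0158). Of 18 other cadherin genes 2 fell, 11.1% of the list against 11% of all genes. CDH7 fell by 1.45 (adjusted p = 0.0106) and CDH18 by 1.06 (adjusted p = 0.00634). When doxycycline array 2 or 5 was left out, 1 cadherin gene of the list was higher. Of 17 measured catenins and cadherin regulators 1 was called, 5.88% of the list against 11% of all genes. This was the metalloprotease gene ADAM15, which fell by 0.81 (adjusted p = 0.000585). Beta-catenin, CTNNB1, differed by 0.08 (95% CI -0.16 to 0.32).

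The genes that act with these factors were read from 10 lists with 204 distinct measured genes, of which 15 rose and 14 fell. That is 14.2% called, against 11% of all genes. These lists share 5 genes among themselves, and some of their genes are also in the marker lists, such as ACTA2, COL1A1, COL1A2 and POSTN. The lists were written with earlier results of these data known.

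Among 23 other transition factor genes 2 rose and 1 fell, 13.0% of the list, with a median change of -0.05. HMGA2, a chromatin protein that promotes the transition, fell by 0.63 (adjusted p = 0.0127). ID4, an inhibitor of helix-loop-helix factors, rose by 0.84 (adjusted p = 0.0235), and KLF4, a factor of epithelial differentiation, rose by 0.89 (adjusted p = 0.0394). Leaving out vehicle array 3 or 4 lost both rises, and leaving out vehicle array 1 or 2 or any single doxycycline array lost 1 of them. SNAI1, the closest relative of SNAI2, differed by 0.06 (95% CI -0.58 to 0.69) and TWIST2 by -0.20 (95% CI -0.61 to 0.21).

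Other neural crest specifiers were listed together with the receptor genes ERBB3, EDNRB and KIT. Of these 23 genes 5 rose and 2 fell, or 30.4% called. TFAP2C, an AP-2 factor, rose by 1.01 (adjusted p = 0.00152) and LMO4, a LIM-domain cofactor, rose by 0.51 (adjusted p = 0.0138). MSX1, a homeobox factor of the neural plate border, fell by 1.09 (adjusted p = 0.00179), and ZIC1, a zinc finger factor of the same border, fell by 1.12 (adjusted p = 0.00414). The other rises, named after their values were seen, were those of ERBB3 (1.67), TFAP2B (0.63) and MSX2 (0.61). The groups of ERBB3 overlapped (adjusted p = 0.0214), and its SD was 0.37 in vehicle and 1.04 in doxycycline tumours. TFAP2B was dim, below the lower quartile of genes on 8 of the 10 arrays. Without vehicle array 1, 3 genes were higher.

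Of 27 epithelial junction and keratin genes 3 rose and 2 fell, 18.5% of the list, with a median of 0.08. The desmosomal genes DSP and DSC2 rose by 1.23 and 1.31 (adjusted p = 0.00194 and 0.0229), and the tight junction gene CLDN4 rose by 0.89 (adjusted p = 0.0165). The simple epithelial keratin genes KRT8 and KRT18 changed by -0.78 and -0.45 (adjusted p = 0.0286 and 0.0404), KRT18 being named after its values were seen. Leaving out vehicle array 1, 2, 4 or 5 or doxycycline array 3 lost 1 of these falls, and leaving out doxycycline array 1, 2 or 4 lost both. The replicate block lost the call of KRT18, while KRT8 kept its own (adjusted p = 0.0127). DSC2 had an adjusted p of up to 0.0565 when single arrays were left out. Keratinocytes could hold such genes too. With limma 0 of their 10 measured markers were called, against 1 at an unadjusted p below 0.05 and 0 with the unmoderated test. More than 11% of all genes passed the unadjusted cut. Of these markers DSG3, FLG, IVL and PKP1 lay below the lower quartile on all arrays, and DSC3 above the median gene on all.

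Of 25 mesenchymal genes 3 rose and 1 fell, 16% of the list, with a median of 0.24. The fibronectin gene FN1 fell by 2.06 (adjusted p = 0.00434), being at 11.1 ± 0.20 under vehicle and 9.06 ± 0.99 under doxycycline (SD, n = 5 each). Its call was lost with the unmoderated test (adjusted p = 0.0796) and with the macrophage marker mean as a covariate (-1.20, adjusted p = 0.222). The gelatinase gene MMP2, the matrix protein gene SPARC and the calcium-binding protein gene S100A4 rose by 0.52, 0.55 and 0.61 (adjusted p = 0.00886, 0.0145 and 0.0361). Leaving out vehicle array 1, 3, 4 or 5, or doxycycline array 1, 2 or 3, lost the call of S100A4 (adjusted p up to 0.0843). When vehicle array 1 or doxycycline array 2, 3 or 5 was left out, 2 genes of the list were lower. The intermediate filament gene VIM differed by -0.01 (95% CI -0.23 to 0.22).

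Repressor partners of the ZEB and SNAI factors were listed together with genes of TGF-beta signalling, such as TGFBR2. Among these 23 genes 3 fell and 1 rose, 17.4% of the list, with a median of -0.14. SMARCA4, a chromatin remodelling ATPase gene, fell by 0.71 (adjusted p = 0.00438), the histone methyltransferase gene EZH2 fell by 0.81 (adjusted p = 0.0163) and the corepressor gene CTBP1 fell by 0.59 (adjusted p = 0.0311). The TGF-beta receptor gene TGFBR2 rose by 0.50 (adjusted p = 0.0323). CTBP1 and TGFBR2 lost their calls without several single arrays, with adjusted p up to 0.0806 and 0.0846. The call of TGFBR2 was lost when vehicle array 1, 2 or 4 or doxycycline array 1, 2 or 3 was left out, and also with the replicate block (adjusted p = 0.0628). That of CTBP1 was lost when vehicle array 1, 2, 3 or 4 or doxycycline array 2 or 4 was left out.

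Of 17 melanocyte differentiation genes 0 were called with limma, against 5 at an unadjusted p below 0.05 and 0 with the unmoderated test. More than 11% of all genes passed the unadjusted cut. GPNMB, a melanosomal glycoprotein gene, had the smallest p and differed by 0.41 (adjusted p = 0.0511). It was called under 5 of 22 alternatives, among them trended and robust moderation (adjusted p = 0.0131) and the fit without vehicle array 3 (adjusted p = 0.0418). Trended and robust moderation gave 3 higher genes of the list, and dropping the dimmest 30% of genes gave 2. Array weights, median centring and another round of quantile normalization gave 1 each. When vehicle array 1 or 3 or doxycycline array 1 was left out 1 gene of the list was higher, and when doxycycline array 2 was left out 1 was lower. MITF, the master factor of melanocytes, differed by 0.09 (95% CI -0.35 to 0.52).

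**Figure D4:**
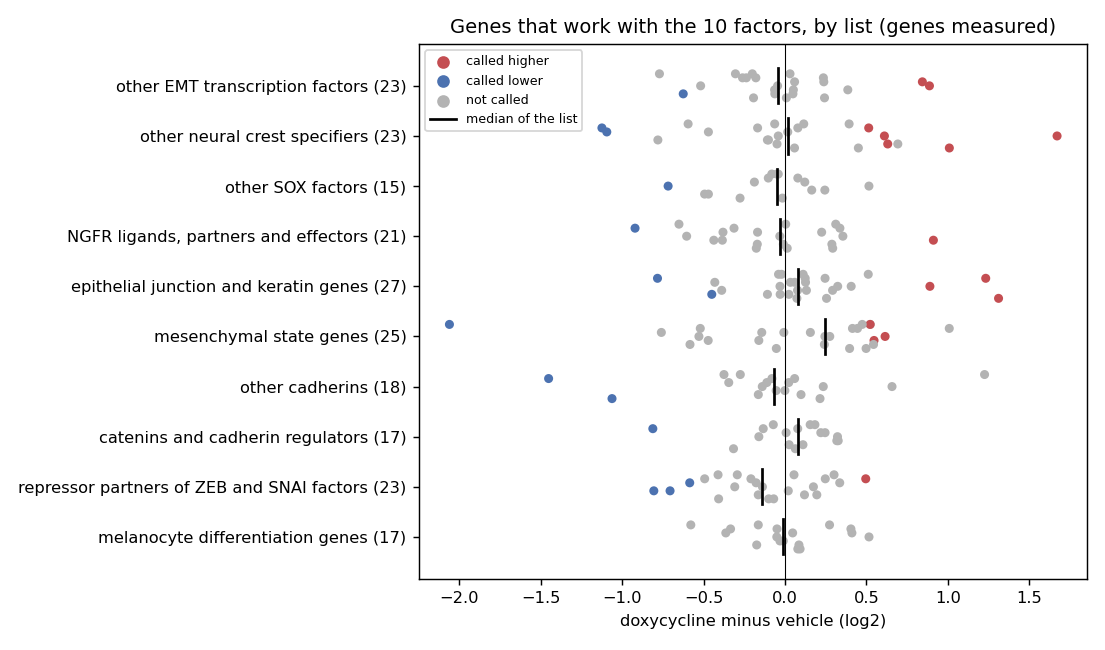
Each point is a gene of 1 of the 10 lists (rows, with the number measured), placed by its doxycycline minus vehicle difference (horizontal axis, log2), coloured red where called higher and blue where called lower, with the list median as a black bar. The list medians lie between -0.14 and 0.24, and called genes appear on both sides of 0 in 6 of the 10 lists.

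In the same fit the MYC probe set rose by 1.34 (adjusted p = 0.000348), and its groups did not overlap. Whether it measures MYC, Omomyc or both cannot be told here, so its rise does not show that Omomyc was made. Among 10 measured melanoma and melanocyte markers SOX10, PRAME, MIA and CSPG4 lay above the median gene on all arrays and TYR lay below the lower quartile on all. With limma 0 of these 10 were called, against 2 at an unadjusted p below 0.05 and 0 with the unmoderated test. More than 11% of all genes passed the unadjusted cut. Leaving out doxycycline array 5 gave 2 higher and leaving out doxycycline array 2 gave 1 lower. These counts are not independent of earlier ones. MITF, TYR, PMEL, MLANA and SOX10 are also among the melanocyte differentiation genes, and S100B is also a Schwann cell marker. Of 12 endothelial markers 1 rose, ROBO4 (0.89, adjusted p = 0.0208), or 8.33% called against 11% of all genes. PECAM1 and KDR lay below the lower quartile on all arrays, whereas EGFL7 lay above the median gene on all. Without doxycycline array 2, 1 endothelial marker was lower. The mean correlation of an array with its own group was 0.982 to 0.985 in vehicle and 0.967 to 0.977 in doxycycline tumours, lowest in doxycycline tumours 5 and 4.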

How the data were processed

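The deposited values are log2 expression levels per probe set of Affymetrix arrays, computed by the authors with RMA, as the submitters' processing notes say. The version of RMA, the array model and the build used are not stated in the sources at hand. RMA adjusts arrays to the same distribution of intensities, so a change shared by most genes would not show. Of 18569 probe sets, 17511 carried 1 symbol in the platform annotation, 0 several and 1058 none; 17 genes had several probe sets, of which the one with the highest mean was kept, leaving 17492 genes. The platform's gene names all matched the RefSeq gene table by Entrez identifier. Mouse host RNA can hybridise to these probes.

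The test was limma (version 3.58.1, under R 4.3.3), two-sided, with a linear model of treatment alone on the 10 arrays, moderated by eBayes; p-values were adjusted by Benjamini-Hochberg across every gene measured. The procedure was tested on simulated data drawn with the same spread in both groups, so groups of unequal spread were not covered. An exact permutation test over the 252 splits has a smallest p of 0.00794, which after adjustment over all genes was 0.0672, so it can call no gene; it was not used for calls. The number of arrays limits the precision.

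The alternatives were these: leaving out each array in turn, a replicate block, median centring, another round of quantile normalization, array weights, trended and robust moderation, a stroma score of 36 markers as covariate, an unmoderated test per gene of unequal variances, dropping the 30% of genes with the lowest means, averaging probe sets, and a minimum change of 1.5-fold. A macrophage covariate, and the omission of doxycycline arrays 4 and 5 at once, were chosen after seeing the data. Same-numbered tumours had correlations of deviations of -0.06 to 0.19, with 1 of 5 pairs over 0.1. That pair, of the tumours numbered 5, was the highest of all pairings. Differently numbered tumours had correlations of -0.15 to 0.11. The numbers were not used as pairs in the main fit, and the replicate block served as an alternative.

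The members and lists were chosen with earlier results of these data known. Named were all members, up to 4 called genes with the smallest p of each pathway list (or the gene with the smallest p), up to 3 called genes of each marker list, and the 3 genes nearest to each called member in profile. Promoters come from RefSeq (GRCh38.p14). Member windows on the chromosome of SNAI2 were not read, so SNAI2 was left out by this choice. Among the other windows, 5 of the 10 members matched.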

Additional observations from a re-analysis of the deposited data

Results flagged for a closer look

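Among 110 groups of 5 values examined (each gene named by the rule and each marker list, in each treatment), 7 held 1 tumour whose distance to its neighbour took up more than 0.71 of the whole range of the group; chance gives about 1 in 20, or 5.5. Vehicle tumour 5 had a SOX9 value of 8.66 against 7.83 to 8.04 in the other vehicle tumours, and vehicle tumour 2 had a TWIST1 value of 5.92 against 6.29 to 6.36. In PUS7, vehicle tumour 4 was at 6.67 against 6.10 to 6.22. The other flags were all of doxycycline tumour 5, which was low in TNFRSF21 (8.15 against 9.46 to 9.69), SPARC (11.8 against 12.1 to 12.3), LYZ (6.57 against 7.22 to 7.40) and the mean of the Schwann cell markers (4.80 against 5.77 to 6.03).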

How the results depend on the processing

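SNAI2 and NGFR kept their direction and their calls under all 22 alternatives, with adjusted p-values (limma, except for the unmoderated test) of at most 0.0266 and 0.0194 and, with single arrays left out, changes of -2.28 to -1.93 and of 0.89 to 1.10. Averaging probe sets could not alter the values of any member, since each had 1 probe set. The 1.5-fold minimum reused the p-values of the main fit, so it was no new test. SOX2 changed by -1.52 to -1.05 with single arrays left out; it lost its call with the unmoderated test of unequal variances (-1.31, adjusted p = 0.097) and with the macrophage covariate (-0.59, adjusted p = 0.385). ZEB2 lost its call under 14 of 22 alternatives: with the replicate block, the unmoderated test and the 1.5-fold minimum its value was 0.42, with the stroma score 0.38, without doxycycline arrays 4 and 5 together 0.40 (adjusted p = 0.105) and with the macrophage covariate 0.32; with single arrays left out it was 0.35 to 0.47. CDH2 was called without doxycycline arrays 4 and 5 together (-0.71) and without array 5 alone, in a range of -0.61 to -0.36. SOX4, SOX9, ZEB1, TWIST1 and CDH1 were called under none of the alternatives that gave a value; CDH1 was among the dimmest 30% and had none there.

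The number of members called higher was 1 in place of 2 wherever ZEB2 was lost, the replicate block included, and 1 to 2 with single arrays left out. The number called lower was 1 in place of 2 with the unmoderated test and with the macrophage covariate, and 2 to 3 with single arrays left out. Of the pathway genes, 15 higher and 14 lower became 23 and 22 with trended and robust moderation, 7 and 8 with the unmoderated test, 5 and 3 with the macrophage covariate, and 8 to 16 and 12 to 16 with single arrays left out; without vehicle array 4, 8 were higher. All genes called were 1921, 506 with the macrophage covariate, and within 1.5 times the first number otherwise. The replicate block changed no other member's call. Of the other named genes, ID4, KLF4, TNFRSF21, CLDN4, DSC2, KRT8, FN1, S100A4, CDH7, EZH2, CTBP1, ROBO4, CD14, PUS7 and CEP70 lost their calls with the unmoderated test. Signal limits CDH1, whose probe set was dim on every array.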
